A study of Mus musculus with 13 samples.

Results

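The genes described here are 8 genes of the mouse exocrine pancreas that encode enzymes, or the cofactor of an enzyme, that digest fat and starch: Pnlip, Pnliprp1, Pnliprp2, Cel, Clps, Pla2g1b, Amy1 and Amy2a5. They were chosen by name and not by a limit on their values, though earlier results of these data were known. All 8 were found among the 23366 genes of the expression table. Expression was measured by RNA sequencing of the whole pancreas, with 1 library per mouse, in 13 female mice. All of them were of the i4F-B strain, which carries, in every cell, a cassette of the reprogramming factors OCT4, SOX2, KLF4 and MYC (OSKM) that is switched on by doxycycline and is inserted in the Pparg gene. The young mice (n = 4) were 13 weeks old and the old mice (n = 5) were 55 weeks old, and neither group received doxycycline. The old-OSKM mice (n = 4) drank doxycycline with sucrose for 7 days from the age of 55 weeks and recovered for 2 weeks, so that they were 58 weeks old at sampling. Doxycycline with its sucrose, the weeks of additional age and the cassette therefore cannot be told apart in any comparison of old-OSKM mice with the other groups.

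Acinar cells, which make up most of the pancreas, store digestive enzymes in zymogen granules and release them into the duct when a meal arrives. Pancreatic triglyceride lipase splits dietary fat and needs colipase to work on droplets coated by bile salts, while carboxyl ester lipase and phospholipase A2 handle cholesterol esters and phospholipids, and amylase cuts starch. The mRNAs of these enzymes are among the most abundant of the organ, and their amounts are known to adapt to the diet.

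Values are log2 RPKM (reads per kilobase, a measure scaled for gene length and for sequencing depth), which had been quantile normalized, a step that gives every mouse the same set of values. In the table the 40 highest values were identical in all 13 mice (largest difference 0), so the value of a highly expressed gene was fixed by its rank in that mouse. Of the 8 genes, 7 were among the 40 highest genes by mean, and Amy1 ranked between 129 and 223. Ranks are therefore given beside the values, and the order of genes within a mouse was kept by the normalization. The largest rise possible from the young mean was 0.31 on the log2 scale (1.24-fold) for Amy2a5 and 0.49 (1.404-fold) for Pnlip. Neither gene could therefore have passed a threshold of 1.5-fold upwards from the young mean. The old mean of Pnlip was lower, at 10.36, and left it more room. The table gives no read totals per mouse, so no counting interval is given for any value.

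Acinar markers were present in all mice. The protease genes Ctrb1 and Cela2a took ranks 1 and 2 in every mouse. The acinar transcription factor gene Ptf1a had mean log2 values of 2.76 in young, 2.83 in old and 2.50 in old-OSKM mice, of which replicate 4 was at 1.74. One library stood apart, old-OSKM replicate 4, whose correlation with the mean of the others was 0.908, against 0.973 to 0.991 for the other 12. In that library a row without a gene symbol ranked 4 (10 to 24 elsewhere), and the non-coding RNAs Rpph1 and Rmrp ranked 14 and 13 (25 to 31 and 28 to 36 elsewhere). It had 13 rows other than digestive enzymes above Pnliprp2, against 7 to 10 in the other mice. The differences that involve old-OSKM mice are therefore also given without it where they moved.

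**Figure D1:**
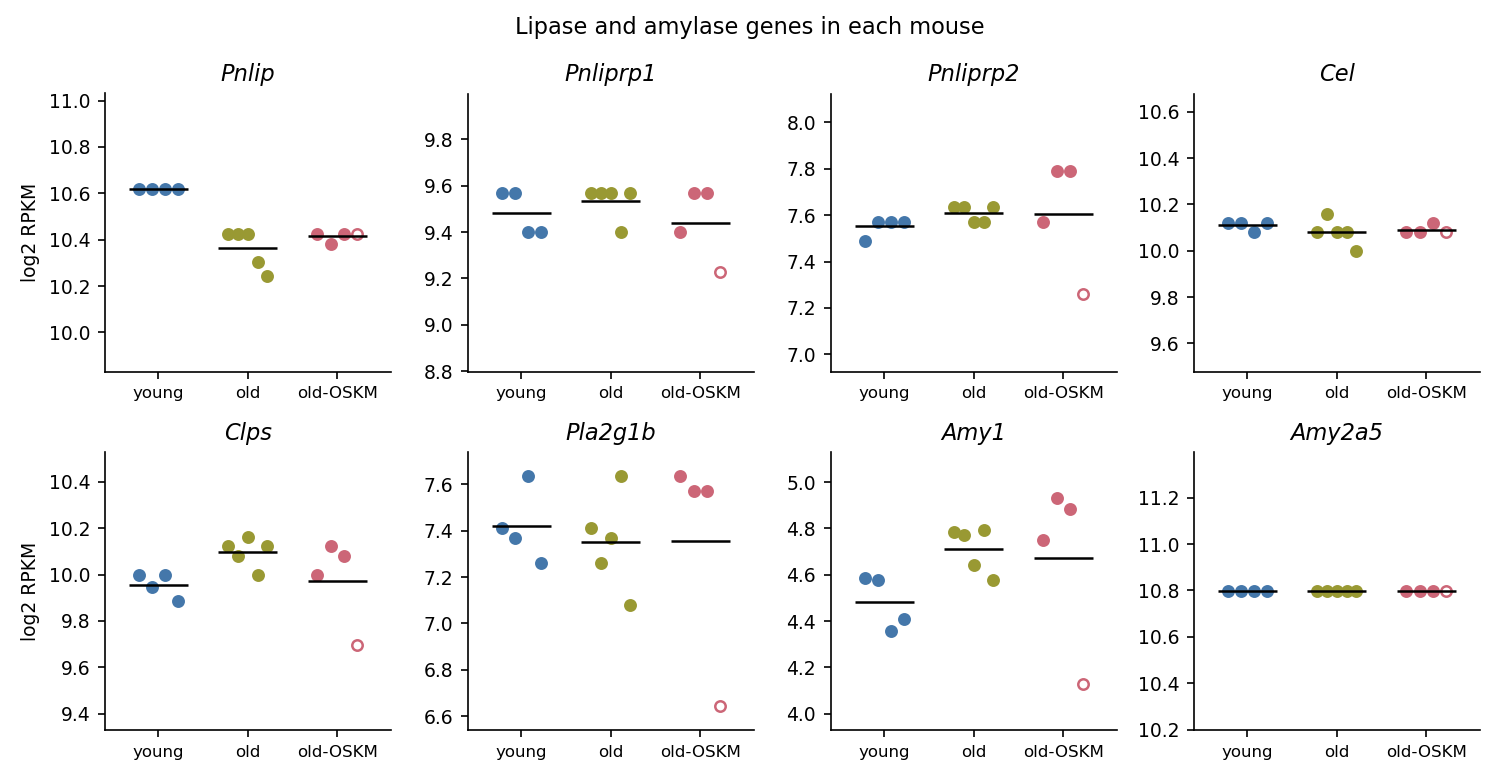
Level (log2 RPKM, vertical axis, every panel spanning the same 1.2 units) of each gene in each mouse by group. Points are mice, lines are group means, and the open circle is old-OSKM replicate 4. Young and old mice are apart for Pnlip only, Amy2a5 has the same value in all mice, and the open circle is the lowest point for Pnliprp1, Pnliprp2, Clps, Pla2g1b and Amy1.

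None of the 8 genes passed the threshold of the study, a fold change over 1.5 with a raw p under 0.01, in any comparison. Among all genes, 0.886% passed it between old and young mice, 0.753% between old-OSKM and old mice and 0.625% between old-OSKM and young mice. Differences are from limma with all 3 groups in one fit. The old mean was above the young mean for 4 genes, below it for 3 and equal for Amy2a5, and the median difference of the 8 was 0.02, against 0.00 over all genes. The old-OSKM mean was above the old mean for 3 genes and below it for 4, with a median of -0.0039 against -0.04 over all genes. Against young mice it was above for 3 and below for 4, with a median of -0.01 against -0.04. At a raw limma p under 0.05, Pnlip passed between old and young and between old-OSKM and young mice, and the other 7 genes in no comparison. The share of all genes under 0.05 was 5.52% between old and young mice, 8.07% between old-OSKM and old mice and 5.07% between old-OSKM and young mice, so 1, 0 and 1 of 8 genes stand against these shares. The smallest adjusted p of the 24 limma tests was 0.0923, for Pnlip between old and young mice.

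Pnlip encodes pancreatic triglyceride lipase (chr19:58670365-58681799 in GRCm38.p6, plus strand). In the young mice it was the 4th highest gene in 4 of 4 mice, at 10.62 (1573 RPKM, 2.51% of the summed RPKM of the mouse). In the old mice it was at 10.42 in replicates 1 to 3 (rank 5), 10.30 in replicate 4 (rank 7) and 10.24 in replicate 5 (rank 8). In the old-OSKM mice it was at 10.42 in replicates 1, 3 and 4 (rank 5) and 10.38 in replicate 2 (rank 6). Every young mouse was thus above every old and every old-OSKM mouse, whereas the values of old and old-OSKM mice overlapped.

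The mean of Pnlip was 10.36 ± 0.09 (SD, n = 5) in old mice and 10.41 ± 0.02 (SD, n = 4) in old-OSKM mice. The difference between old and young mice was -0.26 (standard error 0.05, 95% interval -0.36 to -0.16), a ratio of 0.838. Its raw limma p was 0.000142 and its adjusted p 0.0923, and the two-sided exact permutation p was 0.00794, the smallest that 5 against 4 mice can give. Between old-OSKM and young mice the difference was -0.21 (standard error 0.05, 95% interval -0.31 to -0.10, limma adjusted p = 0.487). The exact permutation p of 0.0286 was again the smallest possible. Old-OSKM mice differed from old mice by 0.05 (95% interval -0.05 to 0.15, limma adjusted p = 0.628), which does not pass, and each pair of these comparisons shares a group of mice. Leaving out old-OSKM replicate 4 left the Pnlip differences at 0.05 from old and -0.21 from young mice. The spread of the young mice is 0 because they share a rank, so the error of these differences comes from the other groups and from the variance that limma borrows across genes. Groups without overlap made up 2.71% of all genes between old and young mice, 1.73% between old-OSKM and old mice and 1.9% between old-OSKM and young mice. Of the 8 genes, Pnlip alone had no overlap in the first and the last of these comparisons, and none of the 8 was without overlap between old-OSKM and old mice.

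The gene that exchanged places with Pnlip was Prss2, which encodes an anionic trypsinogen. Pnlip was above Prss2 in 4 of 4 young mice, in 0 of 5 old mice and in 1 of 4 old-OSKM mice. Prss2 was at 10.38 in young replicate 1 and at 10.42 in the other young mice, at 10.62 in each old mouse and in old-OSKM replicates 1 to 3, and at 10.38 in old-OSKM replicate 4. The difference of Prss2 between old and young mice was 0.21 (limma adjusted p = 0.322). From young to old-OSKM mice it was 0.15 (limma adjusted p = 0.706), and 0.21 without old-OSKM replicate 4 (limma adjusted p = 0.0433), still under 1.5-fold. The old mice and old-OSKM replicates 1 to 3 share a rank, so without replicate 4 their spread is 0. The error then comes from the young mice and from the variance that limma borrows across genes. Of the stretches of 50 bases in the Prss2 transcript, 92.2% occurred in no other gene, so some of its reads could belong to other trypsinogen genes. In old replicate 4 the trypsinogen genes Try4 and Try5 also ranked above Pnlip, as did Try4, Cpa1 and Cpb1 in old replicate 5. Counted among the 28 digestive enzyme genes alone (the 8 genes, 18 other acinar enzymes and the amylase copies Amy2a4 and Amy2b), Pnlip ranked 4 in each young mouse, between 5 and 8 in the old mice, and 5, 6, 5 and 4 in old-OSKM replicates 1 to 4. The row above it in old-OSKM replicate 4 was no enzyme but the one without a symbol, so in that mouse the place of Pnlip among the enzymes was that of the young mice.

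**Figure D2:**
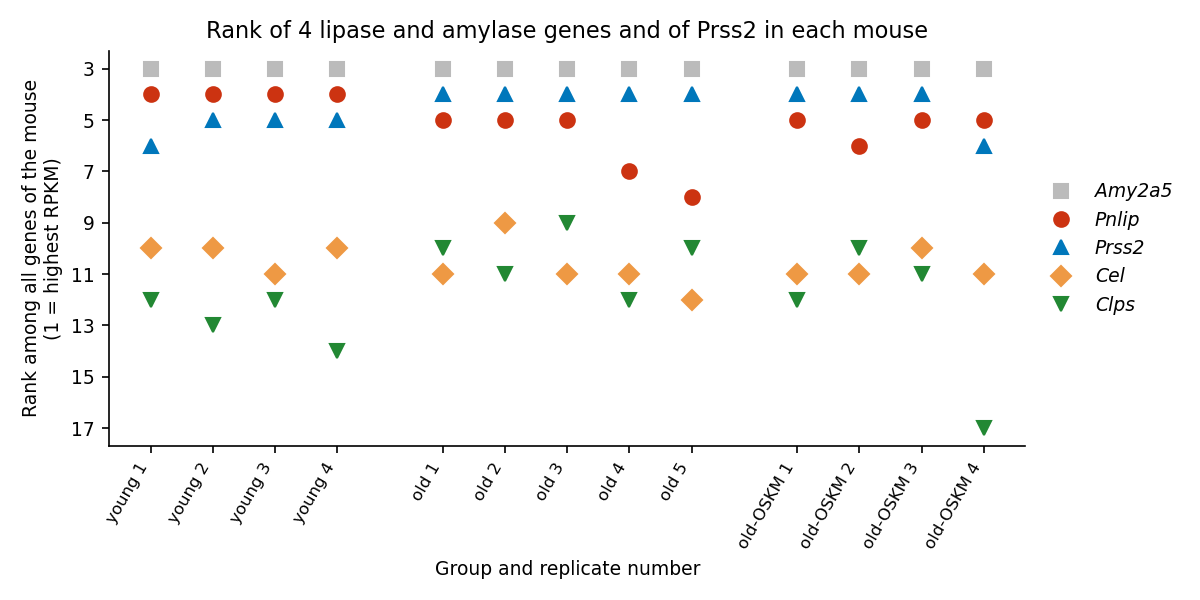
Rank of Amy2a5, Pnlip, Cel, Clps and Prss2 among all genes of each mouse (vertical axis, reversed so that the highest RPKM is at the top; horizontal axis, group and replicate). Pnlip (circles) is above Prss2 (triangles) in the 4 young mice and below it in the 5 old mice and in old-OSKM replicates 1 to 3.

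The sequences before Pnlip and Prss2 are shown because the order of this pair differed between young and old mice. They are the 250 bases before the annotated start, from RefSeq on GRCm38.p6, read 5′ to 3′ on the plus strand, for Pnlip (chr19:58670115-58670364) and Prss2 (chr6:41521526-41521775). Capitals mark 3 motifs, each searched on both strands. The first, CACCTG, is a form of the E-box. The second, TGGGAA, is the core of the RBPJ site, and an E-box with such a site is what the acinar PTF1 complex recognizes. The last, TATAAA, is a TATA box.
Pnlip: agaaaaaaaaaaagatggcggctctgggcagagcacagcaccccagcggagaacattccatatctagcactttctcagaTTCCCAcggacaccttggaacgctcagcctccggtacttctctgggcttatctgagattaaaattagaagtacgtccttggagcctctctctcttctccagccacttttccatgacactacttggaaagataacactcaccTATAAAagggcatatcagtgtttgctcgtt
Prss2: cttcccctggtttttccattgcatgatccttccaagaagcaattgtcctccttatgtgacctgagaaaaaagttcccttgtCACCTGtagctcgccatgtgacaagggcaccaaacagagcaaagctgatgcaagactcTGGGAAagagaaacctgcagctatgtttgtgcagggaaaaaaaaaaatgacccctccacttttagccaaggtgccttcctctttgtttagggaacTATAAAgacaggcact
The reference held 8 such windows for 7 of the 8 genes. CACCTG was found in 2 of them (17.2% of all 32851 windows), TGGGAA in 4 (21.6% of all) and TATAAA in 3 (12.4% of all). Both CACCTG and TGGGAA were found in 1 window, that of Cel (3.91% of all). TATAAA begins at -30 from the start of both Pnlip and Amy2a5. These matches are descriptions of letters and not of binding.

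Pnlip lies in a cluster with Pnliprp1 and Pnliprp2 on chromosome 19. Within 200 kb of any of the 8 genes the annotation lists 77 other genes, 44 of which are in the table, and 1 of these 44 passed the threshold in each comparison. Between old and young mice it was the long non-coding RNA gene 1810007D17Rik, which lies 40612 bases before Pnlip. It lay at 2.35 to 2.96 in young, 4.26 to 4.51 in old and 3.81 to 4.36 in old-OSKM mice, a difference of 1.79 between old and young mice (limma adjusted p = 0.00056). It passed again between old-OSKM and young mice (limma adjusted p = 0.00418), and without old-OSKM replicate 4 this difference was 1.57. Pnlip and this neighbour were thus on opposite sides of 0 between old and young mice, and whether the 2 values are related was not tested. The neighbour that passed between old-OSKM and old mice was Ak8, an adenylate kinase gene 134872 bases from Cel, which rose by 0.79 (limma adjusted p = 0.547). It did not pass without old-OSKM replicate 4, with a difference of 0.72. Ak8 was a low gene, with mean log2 values of -2.59 in old-OSKM and -3.39 in old mice.

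Clps encodes colipase (chr17:28558210-28560766, minus strand), the protein that anchors pancreatic lipase to the fat droplet. Its values in the young mice were 9.997, 9.95, 9.997 and 9.88 (ranks 12 to 14). In the old mice Clps was at 10.12, 10.08, 10.16, 9.997 and 10.12 (ranks 9 to 12). In old-OSKM replicates 1 to 4 it was at 9.997, 10.12, 10.08 and 9.70, and the last of these, at rank 17, was the lowest of all 13 mice. The old mice lay at or above the highest young value, and the groups touched at 9.997, the value of rank 12. The difference for Clps between old and young mice was 0.14 (95% interval -0.03 to 0.31, limma adjusted p = 1), with a two-sided exact permutation p of 0.0317 that is not adjusted for the 24 comparisons of the 8 genes. Between old-OSKM and old mice it was -0.12 (95% interval -0.29 to 0.05, limma adjusted p = 0.608), and -0.03 without old-OSKM replicate 4. Clps and its partner Pnlip thus had opposite signs between old and young mice. Their Pearson r over the 13 mice was -0.362 and the Spearman rho -0.535, given as a description of pooled groups. The r was -0.660 without old-OSKM replicate 4.

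Pnliprp1 and Pnliprp2 encode lipase-related proteins, of which the second also acts on galactolipids and phospholipids and the first has little known lipase activity. They follow Pnlip on chromosome 19 (chr19:58728887-58744169 and chr19:58759723-58777534, plus strand). Pnliprp1 was at 9.57, 9.57, 9.40 and 9.40 in young mice, at 9.57 in old mice except replicate 4 (9.40), and at 9.40, 9.57, 9.57 and 9.23 in old-OSKM mice. The groups overlapped and only ranks 18 to 20 were taken. Its differences were 0.05 between old and young mice (95% interval -0.12 to 0.22), -0.09 between old-OSKM and old mice (95% interval -0.26 to 0.08) and -0.04 between old-OSKM and young mice (95% interval -0.22 to 0.13). Without old-OSKM replicate 4 the second became -0.02 and the third 0.03.

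Pnliprp2 was less abundant per length, with a mean RPKM in young mice of 188 (SD 5.38, n = 4) against 717 for Pnliprp1 (SD 47.5, n = 4). The old mice averaged 196 RPKM for Pnliprp2 (SD 4.77, n = 5) and the old-OSKM mice 197 (SD 32.5, n = 4). In log2 RPKM it was at 7.49 in young replicate 1 and 7.57 in the other young mice, and at 7.57 or 7.64 in the old mice. The old-OSKM mice held both the highest and the lowest values, at 7.57, 7.79, 7.79 and 7.26. The difference of Pnliprp2 between old and young mice was 0.06 (95% interval -0.15 to 0.26) and that between old-OSKM and old mice -0.01 (95% interval -0.21 to 0.20). Without old-OSKM replicate 4 the latter was 0.11 and that against young mice moved from 0.05 to 0.17, with no call in either case.

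Cel encodes carboxyl ester lipase, which is activated by bile salts (chr2:28555819-28563403, minus strand). It kept to ranks 9 to 12, at 10.12, 10.12, 10.08 and 10.12 in young mice, 10.08, 10.16, 10.08, 10.08 and 9.997 in old mice and 10.08, 10.08, 10.12 and 10.08 in old-OSKM mice. Apart from Amy2a5 this was the narrowest range of the 8 genes, 0.16 over all mice. The differences of Cel were -0.03 (95% interval -0.12 to 0.05), 0.01 (95% interval -0.07 to 0.10) and -0.02 (95% interval -0.11 to 0.07) for old against young mice, for old-OSKM against old mice, and for old-OSKM against young mice. A change of 1.5-fold in the normalized value lies outside each of these intervals. The differences of Cel were 0.01 from old and -0.02 from young mice without old-OSKM replicate 4. Cel was above Clps in 4 of 4 young, 2 of 5 old and 3 of 4 old-OSKM mice.

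Pla2g1b encodes the secreted phospholipase A2 of pancreatic juice (chr5:115466142-115474722, plus strand), and it varied most of the 7 genes in the top 40, over 0.99 on the log2 scale. In young mice it was at 7.41, 7.37, 7.64 and 7.26, and in old mice at 7.41, 7.26, 7.37, 7.64 and 7.08. In old-OSKM replicates 1 to 3 it was at 7.64, 7.57 and 7.57, and in replicate 4 at 6.64, the lowest of all mice. The differences of Pla2g1b were -0.07 between old and young mice (95% interval -0.49 to 0.36), 0.01 between old-OSKM and old mice (95% interval -0.42 to 0.43) and -0.06 between old-OSKM and young mice (95% interval -0.51 to 0.38). Leaving out old-OSKM replicate 4 changed the second to 0.24 and the third to 0.18, which did not pass the threshold. With it, the 3 intervals are the widest of the 8 genes.

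**Figure D3:**
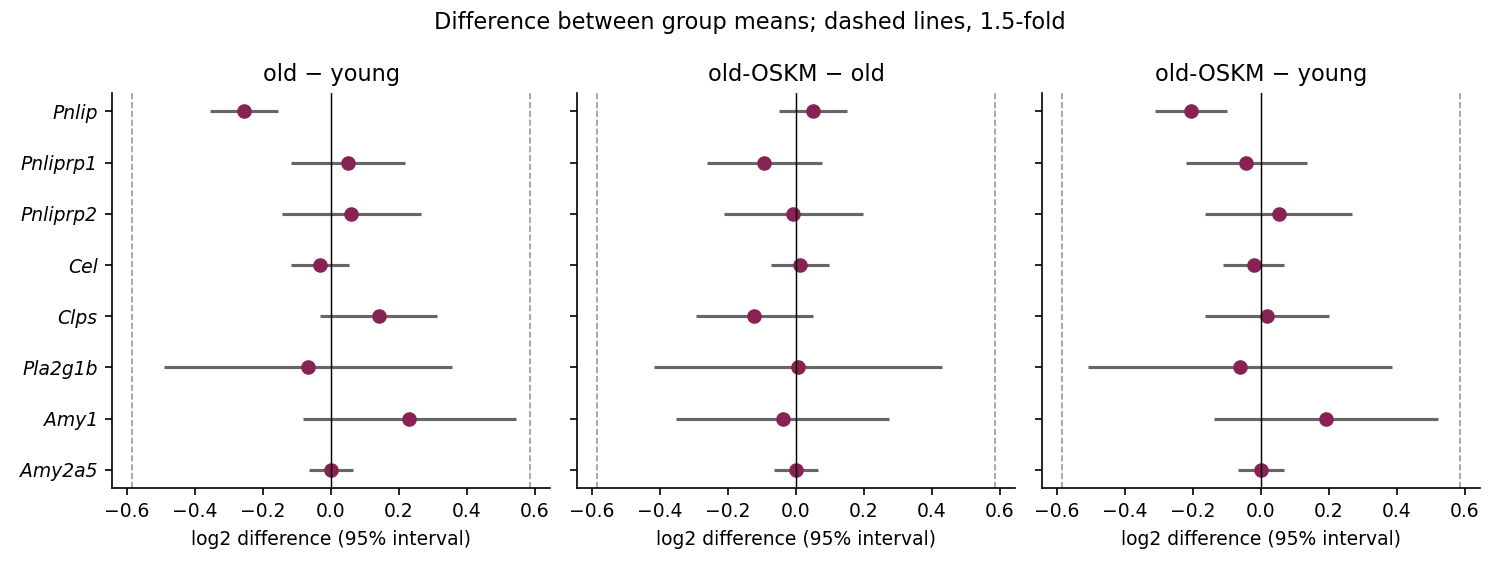
Difference between group means (log2 RPKM, points) with its 95% interval from limma (lines) for the 8 genes in the 3 comparisons. Dashed lines mark 1.5-fold, which no point and no interval reaches, and only the intervals of Pnlip against young mice lie apart from 0.

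Amy2a5 and Amy1 encode alpha-amylases, the first the pancreatic and the second the salivary enzyme, and both lie on the minus strand of chromosome 3 (chr3:113249178-113258699 and chr3:113555952-113577750). Their near-identical copies bear on how well reads can be assigned, since the authors excluded reads that mapped to 5 or more places. The first 100 coding bases are shown to compare these copies, from GENCODE on GRCm38, of Amy2a5 (chr3:113258583-113258682, exon 1), its copy Amy2a4 (chr3:113291195-113291294, exon 1) and Amy1 (chr3:113569913-113570012, exon 2), read 5′ to 3′ on the minus strand. Capitals mark the 12 bases at which Amy2a5 and Amy1 differ, and Amy2a4 has 0 differences from Amy2a5.
Amy2a5: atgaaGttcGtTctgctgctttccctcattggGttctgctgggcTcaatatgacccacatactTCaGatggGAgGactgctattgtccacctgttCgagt
Amy2a4: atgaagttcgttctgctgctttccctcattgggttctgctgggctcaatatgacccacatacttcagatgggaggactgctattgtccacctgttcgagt
Amy1: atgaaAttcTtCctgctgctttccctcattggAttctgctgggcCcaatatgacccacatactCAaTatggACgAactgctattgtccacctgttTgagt
Of the 50-base windows (the length of a read) of the longest transcript, 42.8% occurred in no other gene of the annotation for Amy2a5, 97.3% for Amy1, 59.8% for Amy2b and 0% for Amy2a4, whose windows were all shared. The transcript of Amy2b used for this is annotated as an unprocessed pseudogene. The transcripts used were 3715 bases long for Amy2a5 and 3717 for Amy2a4, against 1985 for Amy1 and 1577 for Amy2b. Each window counts alike, and where the unshared windows of Amy2a5 lie was not examined. Its 42.8% is therefore not the share of its reads that can be assigned. For Amy2a5, 28.8% of the windows occurred in 5 or more genes. The 6 genes that act on lipids had 100% of their windows to themselves. How the reads of Amy2a5, Amy2a4 and Amy2b were divided is thus uncertain, and the copies Amy2a1, Amy2a2 and Amy2a3 were not analysed here.

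**Figure D4:**
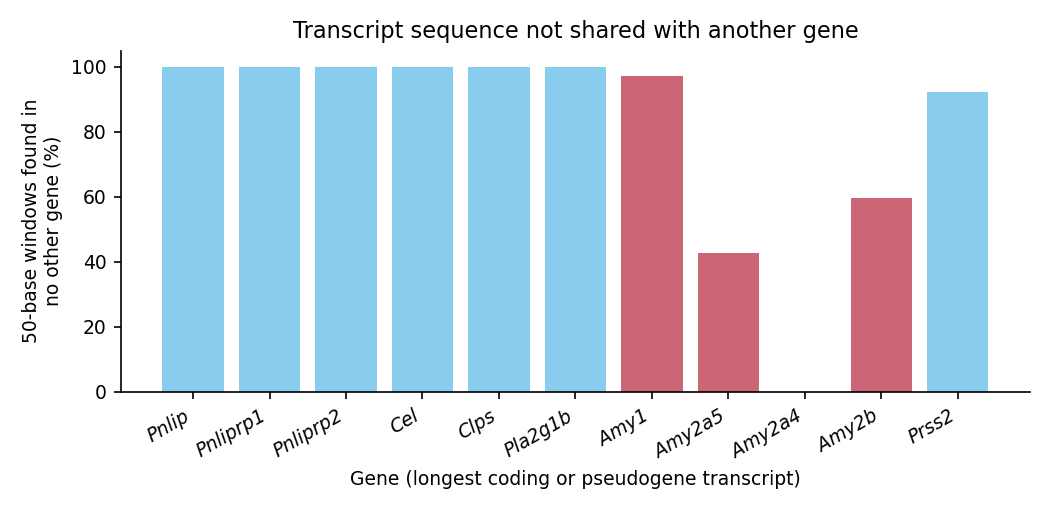
Percent of the 50-base windows of each gene's longest transcript that occur in no other gene of the annotation (vertical axis, from 0), with amylase genes in red and the others in blue. The lipid-digesting genes stand at 100%, Amy2a5 at 42.8%, Amy2a4 at 0% and Prss2 at 92.2%.

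Amy2a5 ranked 3 in each of the 13 mice, at 10.80 (1780 RPKM, 2.84% of the summed RPKM). Its differences are 0 in all 3 comparisons because its rank was the same in each mouse. The 95% interval for old against young mice, -0.06 to 0.06, rests only on the variance that limma borrows from other genes. A fall of 1.5-fold in the normalized value would have needed rank 9 or a lower place, which Amy2a5 held in no mouse. A fall shared with the enzyme genes around it could leave its rank, and so its value, the same. Amy2a4 lay between 9.88 and 9.997 in young and old mice, between 9.88 and 9.95 in old-OSKM replicates 1 to 3, and at 10.16 in old-OSKM replicate 4. Amy2b lay between 6.17 and 6.42 in young and old mice, at 6.33 in old-OSKM replicates 1 to 3 and at 6.57 in replicate 4. Both copies were thus highest in the mouse in which 5 of the 8 genes were lowest. The differences of Amy2a4 and Amy2b between old and young mice were 0.03 and 0.02 (limma adjusted p = 1 for both), and their signs turned negative when the values were centred on the other acinar enzymes.

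Amy1 was far lower, with a mean RPKM in young mice of 22.4 (SD 1.79, n = 4). The old mice averaged 26.3 RPKM (SD 1.75, n = 5) and the old-OSKM mice 26.1 (SD 5.94, n = 4). Its log2 values in the young mice were 4.58, 4.58, 4.36 and 4.41. In the old mice they were 4.78, 4.77, 4.64, 4.79 and 4.58, and in old-OSKM mice 4.75, 4.93, 4.88 and 4.13. Old and young mice overlapped at 4.58, and old-OSKM replicates 1 to 3 were above every young mouse while replicate 4 was below all. The difference of Amy1 between old and young mice was 0.23 (95% interval -0.08 to 0.54, limma adjusted p = 1), with an exact permutation p of 0.0317. Between old-OSKM and young mice it was 0.19 (95% interval -0.14 to 0.52, limma adjusted p = 0.706) and, without old-OSKM replicate 4, 0.37, which is still under 1.5-fold. From old to old-OSKM mice it was -0.04 (95% interval -0.35 to 0.27), and the sign turned without that mouse, at 0.14.

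The normalization gave every mouse the same summed RPKM (62744.8 to 62744.9), so the shares of genes near the top follow from their ranks. Together the 8 genes took 10.4% of the summed RPKM in young mice (SD 0.117, n = 4). Their share was 10.2% for old mice (SD 0.237, n = 5) and 10.1% for old-OSKM mice (SD 0.447, n = 4). The single mice lay between 10.3% and 10.6% in the young group and between 9.95% and 10.4% in the old group. In the old-OSKM group they were at 10.1%, 10.4%, 10.4% and 9.46%, the last in replicate 4. The groups overlapped. The 18 other acinar enzymes, mainly proteases, took 25.3% in young mice (SD 0.314), 25.7% in old mice (SD 0.130) and 25.1% in old-OSKM mice (SD 1.42), with 23.0% in old-OSKM replicate 4. Without that mouse the old-OSKM mean was 10.3% for the 8 genes (SD 0.169, n = 3), above instead of below the old mean, and 25.8% for the 18 enzymes (SD 0.0410, n = 3). These shares do not measure the total amount of acinar RNA. In bulk tissue, fewer acinar cells and less RNA per acinar cell cannot be told apart.

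**Figure D5:**
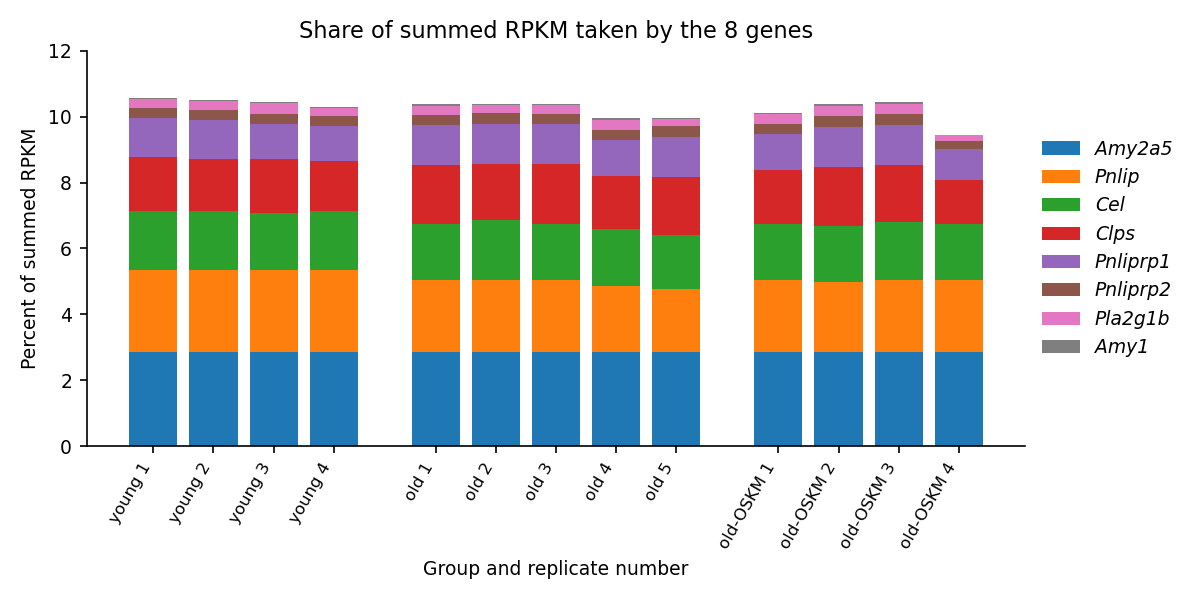
Percent of the summed RPKM of each mouse (vertical axis, from 0) taken by the 8 genes, stacked by gene, for each group and replicate. The totals lie between 9.46% in old-OSKM replicate 4 and 10.6%, and the segment of Amy2a5 is the same in all mice. The normalization made the summed RPKM the same in all mice, so the shares follow from ranks.

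Among the 7 genes that vary, the values of 10 of 21 pairs had a Pearson r over 0.5 across the 13 mice, and 5 of 21 without old-OSKM replicate 4. Pnliprp1 and Clps had an r of 0.833 (rho 0.704) with it and 0.640 without it. For Pnliprp2 and Amy1 the r was 0.826 (rho 0.693) with it and 0.664 without it, and for Pnliprp2 and Pla2g1b 0.653 (rho 0.143) and 0.148. Pnlip was apart from these, with r between -0.404 and 0.118 to the others except Cel (0.584). Without old-OSKM replicate 4 these were -0.660 for Clps, -0.612 for Amy1, -0.441 for Pnliprp2 and 0.581 for Cel. The points share groups and the set of values, and no p is given.

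Of the genes with a mean above 0, those most like Pnlip over the 13 mice were Nrep (r = 0.846), Acaa2, a mitochondrial enzyme of fatty acid oxidation (r = 0.843), and the chymotrypsin-like protease gene Ctrl (r = 0.802). For Pnliprp1 they were Acd, Nudt8 and Klhdc10 (r = 0.940, 0.935 and 0.931), and for Pnliprp2 Smim20, Dele1 and Mrpl45 (r = 0.940, 0.932 and 0.905). Clps was most like Lsr, the lipolysis-stimulated lipoprotein receptor gene (r = 0.961), Padi2 and Gstk1. For Cel they were Zfp771, Mtarc2 and the elastase gene Cela1 (r = 0.806, 0.784 and 0.771). Those most like Pla2g1b were the respiratory chain genes Uqcrb and Cox7a2 (r = 0.945 and 0.942) and Zfp750, and for Amy1 they were F8a, Cd63 and Mrpl14 (r = 0.929, 0.926 and 0.915). Without old-OSKM replicate 4 these correlations ranged from 0.765 (Pnliprp2 with Mrpl45) to 0.947 (Clps with Lsr). They are the highest of 8407 genes and are not tested.

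Other acinar genes were read with the same fit from lists that, like the 8 genes, were chosen with earlier results of these data known. Of the 18 other acinar enzymes, 0 passed the threshold in any comparison, and their median differences were -0.0012 between old and young mice, -0.06 between old-OSKM and old mice and -0.01 between old-OSKM and young mice. At a raw limma p under 0.05 there were 2, 1 and 2 of the 18, against 5.52%, 8.07% and 5.07% of all genes. These were Prss2 and Ctrl in both comparisons with young mice and the trypsinogen gene Prss1 (-0.21, limma adjusted p = 0.547, and -0.15 without old-OSKM replicate 4) between old-OSKM and old mice. Ctrl was lower in old mice, without overlap, by -0.17 (limma adjusted p = 0.392). None of the 9 measured zymogen granule genes passed. Sycn, which encodes syncollin, had the smallest p of them between old and young mice, with a difference of 0.46 (limma adjusted p = 0.704). None of the 12 acinar transcription factor genes passed either, and Mef2c had the smallest p of these between old-OSKM and old mice (0.58, limma adjusted p = 0.547, and 0.40 without old-OSKM replicate 4). Among 12 genes of receptors and secretion 0 passed, and the muscarinic receptor gene Chrm3 had the smallest p between old and young mice (0.20, limma adjusted p = 0.785).

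Other genes that cleave lipids or sugars were read from lists too. Of all genes, 0.886% passed the threshold between old and young mice, 0.753% between old-OSKM and old mice and 0.625% between old-OSKM and young mice. Of 16 genes of other lipases and lipolysis, 0 passed in the comparisons with young mice. From old to old-OSKM mice 1 passed, Plin1, which coats the lipid droplets of adipocytes and rose by 1.53 (limma adjusted p = 0.547). This call was lost without old-OSKM replicate 4, with a difference of 1.44. Plin1 was a low gene, with mean log2 values of -1.73 in old-OSKM and -3.26 in old mice. Among 9 other secreted phospholipases A2, Pla2g2d and Pla2g3 passed between old-OSKM and young mice, with rises of 1.14 and 1.10 (limma adjusted p = 0.474 and 0.706). Their differences were 1.21 and 1.02 without old-OSKM replicate 4, where Pla2g3 no longer passed. Both were low, with mean log2 values of -0.56 and -2.42 in old-OSKM mice and -1.70 and -3.52 in young mice. In a list of 10 genes of glycogen and carbohydrate cleavage, Pygl, the liver-type glycogen phosphorylase, fell by 0.93 between old and young mice (limma adjusted p = 0.228). Pygl rose by 1.02 between old-OSKM and old mice (limma adjusted p = 0.547), and by 0.97 without old-OSKM replicate 4, and the old mice are shared by both differences. Pygl was also low, with mean log2 values of -0.81 in young, -1.74 in old and -0.72 in old-OSKM mice. As 1 of 10 it passed in each of these comparisons, and 0 of 10 passed between old-OSKM and young mice. At a raw limma p under 0.05 there were, in the same order of comparisons, 4, 4 and 0 of these 10 genes. There were 1, 2 and 1 of the 16 lipase and lipolysis genes and 2, 1 and 3 of the 9 phospholipases. The shares of all genes were 5.52%, 8.07% and 5.07%. Pnliprp3 was not analysed here.

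Markers of other cells are given beside these values. The summed RPKM of 9 macrophage markers ranged from 15.2 to 26.4 in young, 11.9 to 20.7 in old and 18.2 to 49.5 in old-OSKM mice. That of 10 fibroblast and stellate markers ranged from 32.7 to 63.0, 25.4 to 31.9 and 31.4 to 84.3, that of 9 adipocyte markers from 9.23 to 16.7, 9.54 to 12.7 and 9.79 to 20.7, and that of 12 islet markers from 156 to 320, 176 to 399 and 82.7 to 512. The 8 liver markers were instead widest in the young mice, from 5.71 to 79.0, against 7.15 to 11.0 in old and 6.56 to 8.12 in old-OSKM mice.

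From old to old-OSKM mice 8 of 9 macrophage, 5 of 10 fibroblast and stellate and 4 of 9 adipocyte markers had a raw limma p under 0.05, against 8.07% of all genes. Of these C1qc, Col1a1, Col1a2 and Plin1 passed the threshold, and rose by 1.02, 0.88, 0.89 and 1.53 (limma adjusted p = 0.547 for each). Of all genes 0.753% passed it. Without old-OSKM replicate 4 their differences were 0.94, 0.74, 0.64 and 1.44 and no longer passed. The islet genes Ins1, Mafa and Sst passed only then, at -1.09, -1.36 and -0.94 (limma adjusted p = 0.614, 0.601 and 0.614). Between old and young mice 0.886% of all genes passed. Among them Col1a1 and Col3a1 fell by 0.93 and 1.04 (limma adjusted p = 0.469 and 0.511). Jchain, 1 of 8 markers of B and plasma cells, also passed and rose by 2.35 (limma adjusted p = 0.551). All 8 of these had a higher mean in old-OSKM than in young mice, as did all 7 T cell markers. Xbp1, with the smallest difference of the 8 (0.03), is also in the list of acinar transcription factor genes. Of the 8, 3 passed (Jchain, Cd79b and Ms4a1, limma adjusted p = 0.584, 0.706 and 0.706), against 0.625% of all genes. Of the 7, 1 passed, Cd3g, by 1.70 (limma adjusted p = 0.706). Cd79b, Ms4a1 and Cd3g were low, with mean log2 values of -0.67, -1.30 and -1.41 in old-OSKM mice. The difference of Cd3g was 1.85 without old-OSKM replicate 4 and did not pass. The part of these cells in the values of the 8 genes was not tested.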

How the data were processed

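Pancreas RNA was depleted of ribosomal RNA, made into libraries with a kit that does not mark strand, and sequenced as paired reads of 50 bases. The authors aligned them with STAR 2.3.0e to mm10, estimated RPKM per isoform with Casper, summed them per Entrez gene, and deposited log2 RPKM after quantile normalization. Reads mapping to 5 or more places had been excluded. The deposited log2 values were used as they are, for all 23366 genes, without pseudocount or filter. Read totals were not used here, so the authors' correction for them was not made.

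The 3 groups were compared with limma 3.58.1 (R 4.3.3) in one fit without covariates, with a call defined, after the study, as a raw p under 0.01 together with a change of more than 1.5-fold. Adjusted p-values are Benjamini-Hochberg over all genes. The fit was tested on simulated data. The replicates are separate mice. Symbols and positions came from RefSeq (23273 of the Entrez numbers matched) and transcripts from GENCODE vM21, both on GRCm38. The genes named are the 8 genes, other amylase copies, genes within 200 kb that passed, members of the other lists that passed or had the smallest raw p, and the 3 genes most correlated with each. The 8 genes and the lists were chosen with earlier results of these data known. The text leaves out some genes that this rule names.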

Additional observations from a re-analysis of the deposited data

Results flagged for a closer look

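In 6 of 20 groups of the 8 genes a single mouse lay farther from the others than Dixon's limit allows. Chance flags about 1 in 20 groups of values without ties. That rate does not hold for tied ranks, so 6 of 20 is not read as an excess. Because values near the top are ranks, most of these mice differ by a single step while the others share an identical value. They were Pnlip in old-OSKM replicate 2 (10.38), Pnliprp1 in old replicate 4 (9.40), Pnliprp2 in young replicate 1 (7.49), Cel in young replicate 3 (10.08) and Cel in old-OSKM replicate 3 (10.12). The last was Pla2g1b in old-OSKM replicate 4 (6.64), the lowest of all 13 mice, against 7.57 for the nearest mouse of its group.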

How the results depend on the processing

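None of the 8 genes passed the threshold in any comparison under any alternative, which were a pseudocount of 1, genes with a mean above 0 only, centring on the median or on the 18 other acinar enzymes, the compared groups alone, trend and robust variances, a covariate for the range of the sample numbers, adjusted p under 0.05, an exact permutation test, and leaving out each mouse. Part of this was fixed beforehand. Between old-OSKM and young mice the exact permutation test can give no p under 0.0286, so no gene could pass there. On the deposited scale Pnlip and Amy2a5 could not rise by 1.5-fold from the young mean. Pnlip between old and young mice ranged from -0.27 to -0.22 when a mouse was left out. The number of all genes called moved more. Between old and young mice it was 207, against 16 with the pseudocount, 44 with the filter and 19 at an adjusted p under 0.05. Between old-OSKM and old mice it was 176, against 2, 35 and 1, and 94 to 338 without single mice. Between old-OSKM and young mice it was 146, against 8, 19 and 10, and 121 to 253 without single mice. The cause of these shifts was not tested.

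Small differences reversed. Centred on the other acinar enzymes, Amy2a4 and Amy2b were at -0.0052 and -0.012 between old and young mice. Pnliprp2 was then at 0.056, Amy1 at 0.024 and Prss2 at 0.0041 between old-OSKM and old mice, and Cel was at 0.0087 between old-OSKM and young mice. With the covariate, Cel was at -0.00059 and Pla2g1b at -0.018 between old-OSKM and old mice. Leaving out single mice, Pla2g1b ranged from -0.14 to 0.0047 and Amy2b from -0.027 to 0.063 between old and young mice. Between old-OSKM and old mice the ranges were -0.070 to 0.11 for Pnliprp2, -0.0096 to 0.031 for Cel, -0.088 to 0.24 for Pla2g1b, -0.13 to 0.14 for Amy1, -0.031 to 0.061 for Amy2a4 and -0.0024 to 0.077 for Amy2b. Between old-OSKM and young mice they were -0.085 to 0.028 for Pnliprp1, -0.011 to 0.17 for Pnliprp2, -0.032 to 0.11 for Clps, -0.16 to 0.18 for Pla2g1b and -0.0025 to 0.089 for Amy2a4.

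No paired analysis was possible because the replicate numbers only name the mice. Read totals per mouse were not used here, so low values were not weighed by depth, and a rise of the genes at the top is limited by the normalization.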
